A study of Mus musculus with 16 samples.

Results

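The RNAs of 3 lysophospholipid receptors (Lpar1, S1pr2, S1pr3), 5 G protein alpha subunits (Gna11, Gna12, Gna13, Gnai2, Gnaq) and 2 lipid phosphate phosphatases (Ppap2a, Ppap2b) were followed in protrusions and cell bodies of NIH/3T3 cells, a mouse fibroblast line. These 10 genes were chosen by name as a pathway from the 13015 genes listed in the deposited table, with earlier results of these data known. The series had 16 libraries in 4 groups of 4, from both fractions (CB and Ps) of both siRNAs. CB was the cell body fraction, scraped from above a filter with 3.0 µm pores, and Ps was the protrusion fraction from below it. siControl was a control siRNA and siAPC an siRNA that lowered Apc, the mouse gene of the tumor suppressor adenomatous polyposis coli. In every group the cells were serum-starved, plated for 2 h, exposed for 1 h to lysophosphatidic acid (LPA) from the lower chamber and fixed in 0.3% paraformaldehyde for 10 min. No group without LPA was analysed here, so each value belongs to cells that had met the ligand. The study describes its replicates as independent, and the labels only number them.

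LPA and sphingosine-1-phosphate (S1P) are signalling lipids that act on receptors in the plasma membrane. These receptors pass the signal to G proteins, of which the Gα12 and Gα13 subunits lead to contraction, Gαq and Gα11 to phospholipase C and calcium, and Gαi to lower cyclic AMP and to Rac. Lipid phosphate phosphatases end the signal by removing the phosphate from LPA and S1P at the cell surface. In fibroblasts, LPA is a classical stimulus of stress fibres and of directed movement.

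The libraries held 13466225 to 20296087 reads in listed genes. Apc, the targeted gene, had 73 to 269 reads in siControl CB and 29 to 52 in siAPC CB, 142 to 167 in siControl Ps and 41 to 69 in siAPC Ps. Its siAPC level was 31.3% of the siControl level in CB and 27.9% in Ps. Of 12 fibroblast markers 11 were listed, among them Col1a1, Col1a2 and Vim at log2 values above 11, whereas Postn was not listed and Thy1 had 1 to 13 reads. Markers of other cells were few: 2 of 6 epithelial, 2 of 5 blood (Ptprc, Cd53 and Laptm5 not listed), 1 of 4 endothelial and 1 of 4 muscle markers were listed. In 4 libraries (siControl CB replicate 3 and replicate 2 of the other 3 groups) the deviation from the group mean fell with the GC content of a gene (Spearman rank correlation -0.65 to -0.52), against -0.04 to 0.54 in the other 12 libraries. All results below that passed the test in S1pr2, S1pr3, Ppap2a and Ppap2b, and those of Lpar1 between siRNAs, also passed without these 4 libraries.

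The deposited level of an RNA is a log2 CPM, the log2 of its reads relative to the size of the library after a scaling between libraries. Levels of different genes were compared only as RPKM, the CPM divided by the kb of exon of the gene, so their order depends on the length taken for each gene. On that scale, in siControl CB (mean ± SD, n = 4), Gnai2, a Gαi subunit, stood first with 166 ± 13.7, followed by Ppap2a with 116 ± 5.21. Gna11 (33.2 ± 2.00) and Gna12 (30.1 ± 2.33) overlapped with each other. Lpar1 (12.4 ± 1.68), S1pr2 (12.1 ± 1.58) and Gna13 (11.9 ± 0.69) overlapped too, and the order within these 3 did not exceed their spread. Below them came S1pr3 (7.83 ± 0.94), Gnaq (3.49 ± 0.78) and Ppap2b (0.471 ± 0.032), none of which overlapped with its neighbours. Ppap2b rested on 7 to 41 reads per library, and every other member on at least 234.

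**Figure D1:**
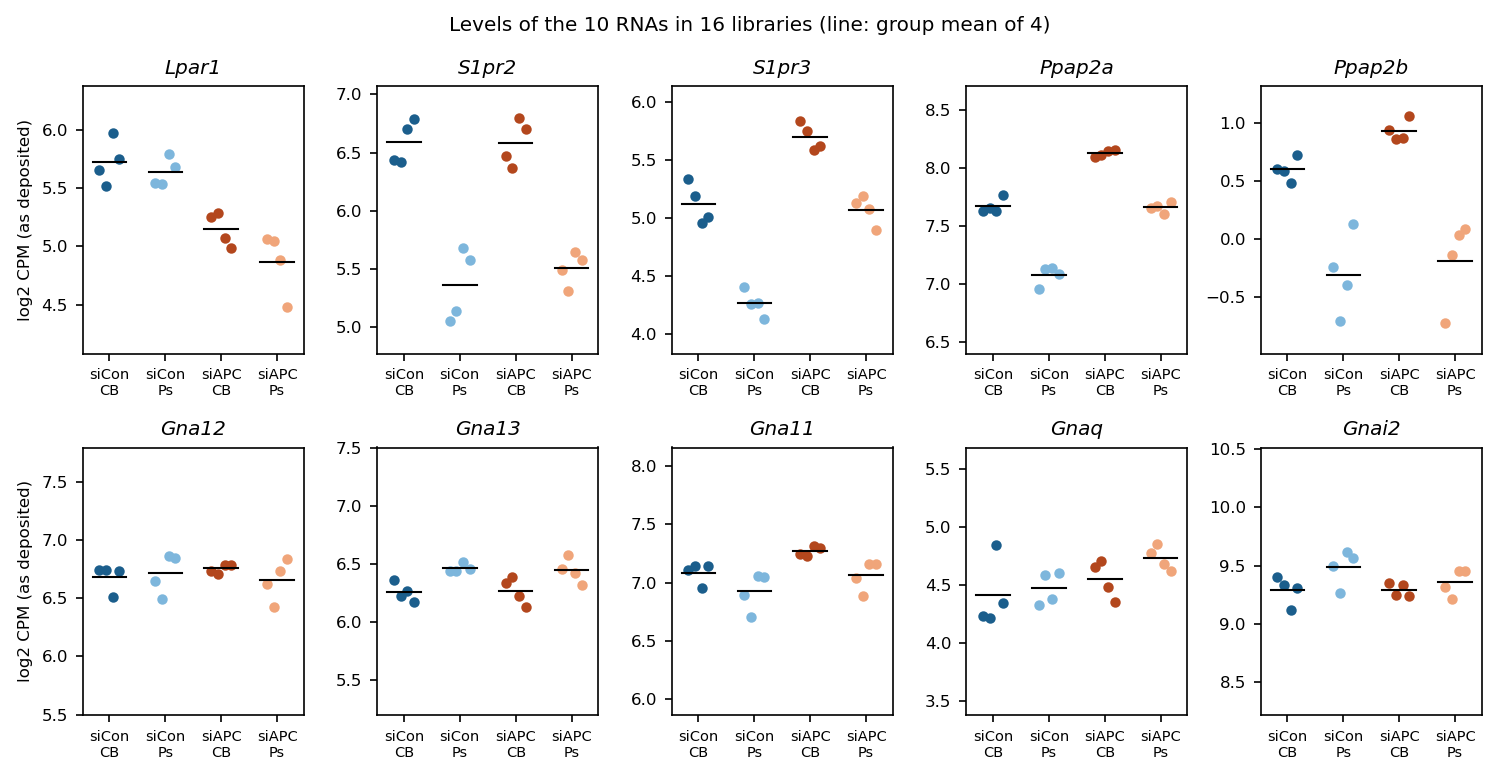
Level of each of the 10 RNAs (log2 CPM, vertical axis) in the 16 libraries, by group, with 4 points per group in the order of replicates 1 to 4 and a line at the group mean; every panel spans the same height on the log2 scale. The S1pr2, S1pr3, Ppap2a and Ppap2b points of Ps lie below those of CB in both siRNAs, and the points of the 5 G protein subunits lie close together.

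Between Ps and CB, S1pr2, S1pr3 and both phosphatases were lower in Ps, whereas Lpar1 and the 5 G protein subunits differed little with the deposited scaling. In siControl 4 of 10 members were lower in Ps (S1pr2, Ppap2b, S1pr3 and Ppap2a) at a limma adjusted p below 0.05, where 31.2% of all genes were, and 2 of 10 were higher (Gna13 and Gnai2), where 29.1% of all genes were. In siAPC 6 of 10 were lower (the same 4 with Lpar1 and Gna11), against 30.9% of all genes, and 1 of 10, Gna13, was higher, against 29.8% of all genes. The median difference of the members was -0.12 in siControl and -0.25 in siAPC, beside medians of -0.00 and 0.02 (log2) over all genes. With a fold change above 2 and an unadjusted p below 0.05, S1pr2 was lower in Ps in siControl (6.82% of all genes), and S1pr2 and Ppap2b were lower in siAPC (5.05% of all genes). By that rule 0 members were higher in Ps in siControl (7.19% of all genes) or in siAPC (7.67% of all genes). In bulk fractions, a smaller part of the material and less of an RNA in it cannot be told apart.

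**Figure D2:**
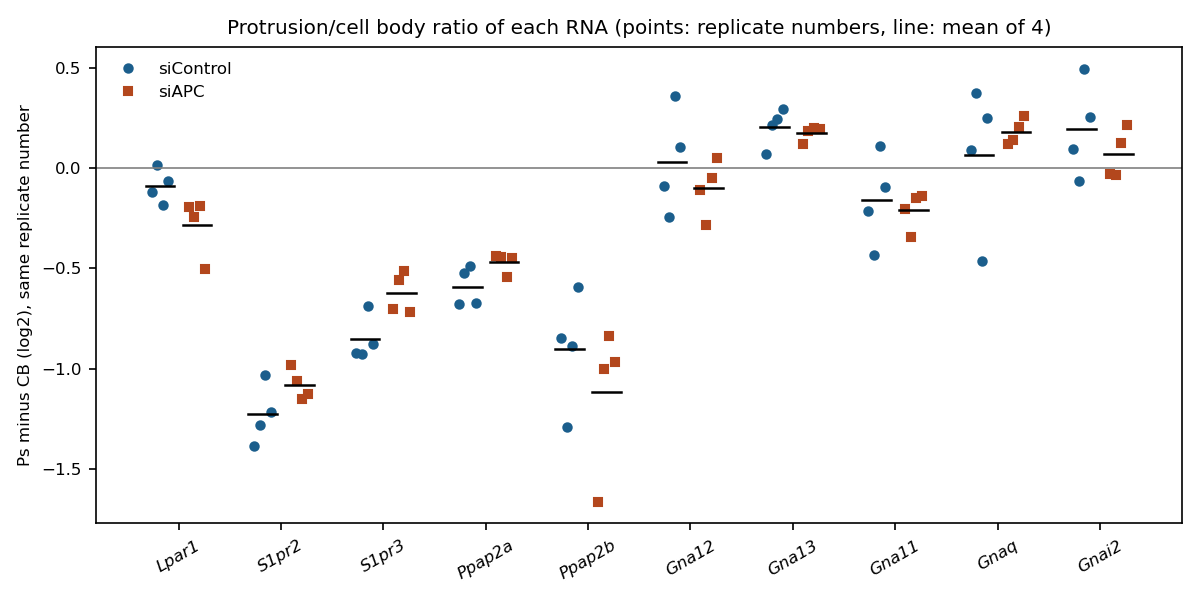
Ps minus CB (log2, vertical axis) of each RNA between libraries with the same replicate number, for siControl (circles) and siAPC (squares), 4 points each, with a line at the mean. S1pr2, S1pr3, Ppap2a and Ppap2b lie below 0 in 8 of 8 pairs, and Gna13 lies above 0 in 8 of 8 by at most 0.29. In siControl the pairs share a number only.

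With siAPC, 3 members changed, and they changed in both fractions. Lpar1 was lower and S1pr3 and Ppap2a were higher in siAPC than in siControl. In CB, 2 of 10 members were thus higher (7.52% of all genes) and 1 of 10 was lower (5.87% of all genes), and the same 3 genes passed in Ps, where 10.7% of all genes were higher and 11.2% lower. S1pr2, Ppap2b and the 5 G protein subunits did not pass the test in either fraction, although Gna11 did in both under quantile normalization. The Ps/CB ratio itself changed with siAPC in 0 of 10 members at a limma adjusted p below 0.05, and 0 of 10 had an unadjusted p below 0.05. Over all genes 0.0% had a higher and 0.0231% a lower ratio by the adjusted p, and at the unadjusted threshold 269 genes had a higher and 223 a lower one.

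**Figure D3:**
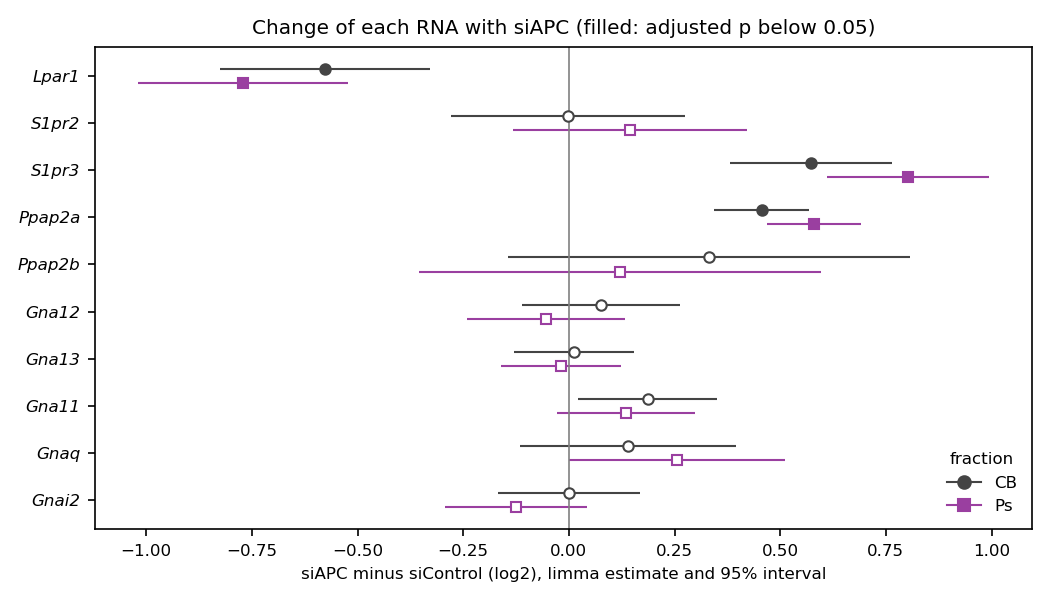
siAPC minus siControl (log2, horizontal axis) of each RNA in CB (circles) and Ps (squares), as the limma estimate with its 95% interval; filled symbols passed the adjusted p of 0.05. Lpar1 lies left of 0 and S1pr3 and Ppap2a right of 0 in both fractions, and the intervals of S1pr2, Ppap2b, Gna12, Gna13 and Gnai2 include 0.

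Lpar1 and S1pr3 were the receptors that moved in opposite directions with siAPC, and the sequences around their start sites are shown for that reason. A set of RefSeq windows (GRCm38.p6), from 250 bases before to 50 bases after the start, covered 8 of the 10 members, in 10 windows. The set used here held none for Gnai2 and Ppap2a, which does not mean that RefSeq lacks them. The windows were searched on both strands for the letters of a TCF/LEF site, the kind of site through which Wnt signalling, which APC opposes, acts on genes. These were CTTTG followed by AA, AT, TA or TT, or the same read on the opposite strand, and matches did not overlap each other. Of 32851 windows of that length over all genes, 16.9% held 1 or more of these. Among the members 2 of the 10 windows held a match, a share near that of all windows. Both were windows of Lpar1, which has 3 of the 10, and they lie at chr4:58553244-58553543 (a match at -28 from the start) and chr4:58499354-58499653 (matches at -154 and 5). The remaining Lpar1 start, and the single windows of S1pr2, S1pr3, Gna11, Gna12, Gna13, Gnaq and Ppap2b, held none of these letters. The 2 Lpar1 windows with a match (minus strand) and the window of S1pr3 (chr13:51408368-51408667, plus strand) read as follows, 5′ to 3′, with matches in capitals. A match is a description of the letters only, and which Lpar1 start these cells used was not measured.
Lpar1 start at chr4:58553244-58553543: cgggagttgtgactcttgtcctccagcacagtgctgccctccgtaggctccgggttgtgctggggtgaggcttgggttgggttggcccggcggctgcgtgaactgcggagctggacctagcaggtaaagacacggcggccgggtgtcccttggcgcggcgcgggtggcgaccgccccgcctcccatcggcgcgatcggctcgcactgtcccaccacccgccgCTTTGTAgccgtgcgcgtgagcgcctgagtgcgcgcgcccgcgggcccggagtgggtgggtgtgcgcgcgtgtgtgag
Lpar1 start at chr4:58499354-58499653: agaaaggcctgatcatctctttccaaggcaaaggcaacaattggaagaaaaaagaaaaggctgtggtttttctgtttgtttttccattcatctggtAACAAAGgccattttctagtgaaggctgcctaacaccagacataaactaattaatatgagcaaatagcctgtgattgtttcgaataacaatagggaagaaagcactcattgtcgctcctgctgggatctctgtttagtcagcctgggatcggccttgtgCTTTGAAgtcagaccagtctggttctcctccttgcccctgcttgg
S1pr3: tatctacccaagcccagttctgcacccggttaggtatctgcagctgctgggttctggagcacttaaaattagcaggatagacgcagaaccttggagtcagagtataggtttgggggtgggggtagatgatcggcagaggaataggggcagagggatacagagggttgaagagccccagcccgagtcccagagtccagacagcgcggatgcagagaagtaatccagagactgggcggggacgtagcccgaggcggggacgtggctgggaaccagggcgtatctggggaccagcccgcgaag

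Lpar1 (GENCODE M21, GRCm38, chr4:58435255-58553898, minus strand) encodes LPA1, the main LPA receptor of fibroblasts. Its log2 CPM in replicates 1 to 4 was 5.66, 5.52, 5.98 and 5.75 in siControl CB and 5.54, 5.54, 5.79 and 5.69 in siControl Ps. In siAPC it was 5.26, 5.29, 5.07 and 4.98 in CB and 5.06, 5.05, 4.88 and 4.48 in Ps. Each siAPC library was below each siControl library of either fraction, and within each siRNA the values of CB and Ps overlapped. The change with siAPC was -0.58 (SE 0.12, adjusted p = 0.00257) in CB and -0.77 (SE 0.12, adjusted p = 0.000103) in Ps, or 1.49-fold and 1.71-fold lower. Between Ps and CB, Lpar1 differed by -0.09 in siControl (95% interval -0.34 to 0.16) and by -0.28 in siAPC (SE 0.12, adjusted p = 0.0470). The siAPC call was lost when replicate 4 of siAPC Ps was left out (-0.15, adjusted p = 0.212), and in 10 other of 23 alternatives. The Ps/CB ratio of Lpar1 differed between siRNAs by -0.19 (95% interval -0.55 to 0.16). Leaving out single libraries, this change of the ratio ranged from -0.28 to -0.07, and the siControl Ps/CB difference from -0.16 to -0.0045.

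S1pr2 (chr9:20962361-20976781, minus strand) encodes S1P2, a receptor that acts largely through Gα12 and Gα13. Its log2 CPM was 6.44, 6.42, 6.71 and 6.79 in siControl CB against 5.05, 5.14, 5.68 and 5.57 in siControl Ps. In siAPC it was 6.47, 6.37, 6.79 and 6.71 in CB against 5.49, 5.31, 5.64 and 5.58 in Ps. Ps and CB did not overlap in either siRNA, and in all 4 groups replicates 3 and 4 were above replicates 1 and 2. The Ps/CB difference was the largest fall among the members in siControl, at -1.23 (SE 0.13, adjusted p = 1.85e-07), or 2.34-fold. In siAPC it was -1.08 (SE 0.13, adjusted p = 1.14e-06), or 2.11-fold. Between siRNAs S1pr2 differed by -0.00 in CB (95% interval -0.28 to 0.28) and by 0.14 in Ps (-0.13 to 0.42), and its ratio by 0.15 (-0.25 to 0.54).

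S1pr3 (chr13:51408639-51422797, plus strand) encodes S1P3, which couples to Gαi, Gαq and the Gα12 family. Its log2 CPM was 5.33, 5.19, 4.96 and 5.01 in siControl CB and 4.41, 4.26, 4.27 and 4.13 in siControl Ps. In siAPC it was 5.83, 5.74, 5.59 and 5.61 in CB and 5.13, 5.19, 5.07 and 4.90 in Ps. The fractions of one siRNA did not overlap, nor did the siRNAs within a fraction, and the siAPC Ps values lay in the range of siControl CB or just below it. S1pr3 was lower in Ps, at -0.85 in siControl (SE 0.09, adjusted p = 1.75e-07) and at -0.62 in siAPC (SE 0.09, adjusted p = 9.93e-06). With siAPC it rose by 0.57 in CB (SE 0.09, adjusted p = 0.000240) and by 0.80 in Ps (SE 0.09, adjusted p = 3.51e-06), or 1.49-fold and 1.75-fold. Among the members its ratio differed most clearly from 0 between siRNAs, at 0.23 (95% interval -0.04 to 0.50, unadjusted p = 0.0926 and adjusted p = 0.981 by limma), which did not pass the test. Of its exon bases 45 (1.01%) are shared with the lincRNA Gm32834 on the opposite strand, and the use of strand in counting is not given in the sources used here.

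On the scale per length, the order of the receptors differed between the groups. In siControl CB, Lpar1 and S1pr2 RNA stood close to each other, with mean RPKM of 12.4 and 12.1, and S1pr3 at 7.83. In siAPC CB the ranges were 7.37 to 9.12 for Lpar1 and 10.8 to 12.8 for S1pr3, which do not overlap and stand in the opposite order to siControl CB (10.7 to 14.7 for Lpar1 and 6.95 to 9.01 for S1pr3). Expressed as a share of the summed level per length of the 3 receptors (mean ± SD, n = 4), Lpar1 took 38.2% ± 2.74 of siControl CB and 54.9% ± 0.33 of siControl Ps, but 25.9% ± 2.60 of siAPC CB and 34.0% ± 3.65 of siAPC Ps. The S1pr2 share was 37.4% ± 2.94 and 24.5% ± 3.18 in CB and Ps of siControl and 37.8% ± 5.12 and 28.6% ± 4.25 in those of siAPC. The S1pr3 share was 24.4% ± 4.27 and 20.5% ± 2.96 and, with siAPC, 36.3% ± 2.73 and 37.5% ± 1.19. Lpar1 thus held most of the receptor RNA of siControl Ps, where its own level differed from CB by -0.09 and those of S1pr2 and S1pr3 were lower. In siAPC CB S1pr2 and S1pr3 had overlapping shares above that of Lpar1, while in siAPC Ps the Lpar1 range (29.1% to 37.0%) and the S1pr3 range (36.4% to 39.2%) overlapped. These levels divide by all exon bases of a gene. For Lpar1 these are 4289 with a longest transcript of 3543, and for S1pr3 both are 4463. The order of the receptors and their shares depend on that length, and another length was not tried. The receptors were set beside each other after their changes were known, and these shares are a description with no test.

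**Figure D4:**
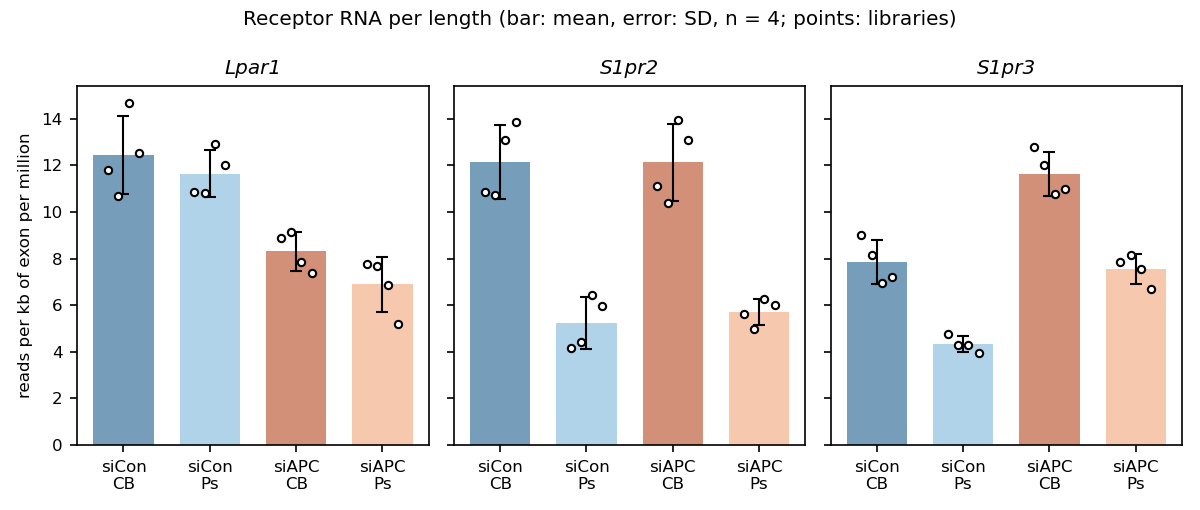
Level per length (RPKM, vertical axis from 0) of the 3 receptor RNAs in the 4 groups; bars are means of 4 libraries, error bars are SD and points are libraries. Lpar1 falls between siControl and siAPC in both fractions, S1pr3 rises in both, and S1pr2 differs between fractions and not between siRNAs beyond its spread.

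Ppap2a (named Plpp1 in later annotation, chr13:112800792-112867894, plus strand) and Ppap2b (Plpp3, chr4:105157347-105232764, plus strand) encode the phosphatases LPP1 and LPP3. The log2 CPM of Ppap2a was 7.63, 7.66, 7.63 and 7.76 in siControl CB and 6.95, 7.13, 7.14 and 7.09 in siControl Ps. In siAPC the values were 8.09, 8.11, 8.15 and 8.15 for CB and 7.65, 7.67, 7.60 and 7.70 for Ps. Ps lay below CB within each siRNA, and siAPC above siControl within each fraction, with no overlap. Ppap2a was lower in Ps, at -0.59 in siControl (SE 0.05, adjusted p = 1.95e-08) and at -0.47 in siAPC (SE 0.05, adjusted p = 5.06e-07). With siAPC it rose by 0.46 in CB (adjusted p = 7.76e-06) and by 0.58 in Ps (adjusted p = 2.71e-07, SE 0.05 for both), which brought siAPC Ps to a mean of 7.66 beside 7.67 in siControl CB. Of its exon bases 452 (25.8%) are shared with Mtrex on the opposite strand, so its level is uncertain to the extent that counting ignored strand.

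Ppap2b had 25, 25, 32 and 30 reads in siControl CB, 10, 7, 11 and 15 in siControl Ps, 41, 35, 35 and 36 in siAPC CB and 9, 13, 19 and 17 in siAPC Ps. All libraries were above the 3 reads taken as the smallest detectable number, and no Ps library reached a CB library of the same siRNA. It was lower in Ps, at -0.90 in siControl (SE 0.23, adjusted p = 0.00204) and at -1.12 in siAPC (SE 0.23, adjusted p = 0.000327). Between siRNAs its difference was 0.33 in CB (95% interval -0.14 to 0.81, adjusted p = 0.385), although the 4 siAPC CB values lay above the 4 siControl CB values. In Ps the difference was 0.12 (95% interval -0.35 to 0.60) and the groups overlapped.

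The summed level of the 11 listed fibroblast markers, which a few abundant genes carry, was lower in Ps and higher with siAPC, as S1pr3 and Ppap2a were. It was 37307 to 40662 CPM in CB and 22665 to 24942 CPM in Ps of siControl, and 47561 to 52651 CPM and 27732 to 30218 CPM in those of siAPC. Taken one by one, 6 of the 11 were lower in Ps in siControl (Col1a1, Col1a2, Col3a1, Fn1, Pdgfra and Pdgfrb) and 2 higher (Vim and S100a4) at a limma adjusted p below 0.05. Of all genes 31.2% were lower and 29.1% higher. With siAPC in CB, 5 of the 11 were higher (Col1a1, Col1a2, Fn1, Pdgfrb and Prrx1) and 1 lower (Pdgfra), beside 7.52% and 5.87% of all genes. With siAPC in Ps the same 5 were higher and 0 lower, beside 10.7% and 11.2% of all genes. The part of this shift in the values of the receptors and phosphatases was not tested. The summed blood markers (Lyz2 and Cd68) were 15.1 to 18.8 CPM in siControl CB and 27.2 to 29.1 CPM in siAPC CB, and the defining blood genes Ptprc, Cd53 and Laptm5 were not listed.

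Gna12 (chr5:140758408-140830431, minus strand) and Gna13 (chr11:109362831-109401369, plus strand) encode the alpha subunits of the G12 family. The log2 CPM of Gna13 was 6.37, 6.23, 6.27 and 6.17 in siControl CB and 6.44, 6.44, 6.52 and 6.46 in siControl Ps. In siAPC the values were 6.34, 6.39, 6.22 and 6.13 for CB and 6.46, 6.57, 6.43 and 6.32 for Ps. Gna13 was higher in Ps by 0.21 in siControl (SE 0.07, adjusted p = 0.0133) and by 0.17 in siAPC (SE 0.07, adjusted p = 0.0318), and CB and Ps overlapped in siAPC only. Under scaling by total reads its siControl difference turned to -0.09, and without siControl CB replicate 4 the siControl call was lost (0.18, adjusted p = 0.0501). The siAPC call was lost when replicate 3 or 4 of siAPC CB or replicate 1 or 2 of siAPC Ps was left out (0.13 to 0.17), and under scaling by total reads (0.02, adjusted p = 0.836). Gna12 lay between 6.43 and 6.86 in all 16 libraries. Its Ps/CB difference was 0.03 in siControl (95% interval -0.16 to 0.22) and -0.10 in siAPC (-0.29 to 0.09), and the groups overlapped. Of the exon bases of Gna12 456 (13.3%) are shared with Amz1 and of those of Gna13 151 (2.35%) with Gm11696, both on the opposite strand.

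Gna11 (chr10:81528724-81545190, minus strand) and Gnaq (chr19:16132831-16387463, plus strand) encode the subunits that activate phospholipase C beta. The log2 CPM of Gna11 was 7.11, 7.14, 6.95 and 7.14 in siControl CB and 6.89, 6.71, 7.06 and 7.04 in siControl Ps. In siAPC the values were 7.24, 7.23, 7.31 and 7.30 for CB and 7.04, 6.88, 7.16 and 7.16 for Ps. Its Ps/CB difference was -0.16 in siControl (SE 0.08, adjusted p = 0.0877), with overlap, and -0.21 in siAPC (SE 0.08, adjusted p = 0.0262), without overlap. The siControl difference passed when siControl CB replicate 3 (-0.20, adjusted p = 0.0338), siControl Ps replicate 3 (-0.20, adjusted p = 0.0402) or siControl Ps replicate 4 (-0.20, adjusted p = 0.0498) was left out, and it shrank to -0.09 (adjusted p = 0.328) without siControl Ps replicate 2. The change of the ratio with siAPC was -0.05 (95% interval -0.28 to 0.18). The siAPC call was lost when any of 4 libraries was left out (siAPC CB replicates 3 and 4, siAPC Ps replicates 1 and 2), with values from -0.20 to -0.15 and adjusted p from 0.0552 to 0.107. It was also lost under quantile normalization (-0.12, adjusted p = 0.0972). With that normalization 4 rather than 6 members were lower in Ps of siAPC, since the Lpar1 call was lost as well, beside 4144 of all 13015 genes. Between siRNAs Gna11 differed by 0.19 in CB (95% interval 0.02 to 0.35, adjusted p = 0.131) and by 0.13 in Ps (-0.03 to 0.30). The difference passed in CB with a replicate block (adjusted p = 0.0292), and under quantile normalization in CB (0.19, adjusted p = 0.0456) and in Ps (0.18, adjusted p = 0.0390). Gnaq lay between 4.21 and 4.85, with Ps/CB differences of 0.06 (-0.19 to 0.32) in siControl and 0.18 (-0.07 to 0.44) in siAPC. Its siAPC Ps values (4.77, 4.85, 4.68 and 4.62) were all above its siControl Ps values (4.33, 4.59, 4.38 and 4.60), and the difference of 0.26 (95% interval 0.00 to 0.51) had an adjusted p of 0.149 by limma, or 0.0430 when siControl CB replicate 3 was left out.

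Gnai2 (chr9:107614125-107635367, minus strand) encodes Gαi2, an inhibitor of adenylyl cyclases. Its log2 CPM was 9.41, 9.33, 9.12 and 9.31 in siControl CB and 9.50, 9.27, 9.61 and 9.56 in siControl Ps. In siAPC the values were 9.35, 9.25, 9.33 and 9.24 for CB and 9.32, 9.21, 9.46 and 9.45 for Ps. All groups overlapped. The level was higher in Ps of siControl by 0.19 (SE 0.08, adjusted p = 0.0436). This difference turned to -0.10 under scaling by total reads and to -0.01 under quantile normalization, and it was lost when any of 11 single libraries was left out (0.14 to 0.21, with the lowest value without siControl CB replicate 3). In siAPC the Ps/CB difference was 0.07 (95% interval -0.10 to 0.24), and between siRNAs it was 0.00 in CB (-0.17 to 0.17) and -0.12 in Ps (-0.29 to 0.04).

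The scaling between libraries moved several calls. Scaled by total reads alone, the median Ps/CB difference of all genes was -0.30 in siControl and -0.14 in siAPC, and the median change with siAPC in Ps was 0.14 (log2). Under that scaling 7 of 10 members were lower in Ps of siControl, where 47.6% of all genes were, and 0 were higher, against 15.4% of all genes. The 7 were the 4 named above with Lpar1 (-0.38, adjusted p = 0.0207), Gna11 (-0.46, adjusted p = 5.25e-05) and Gna12 (-0.27, adjusted p = 0.0140). In siAPC 7 of 10 were lower too, where 39.3% of all genes were, and 0 were higher, against 21.5% of all genes. Gna12 passed there as well (-0.25, adjusted p = 0.0191). With siAPC in Ps, 4 of 10 members were then higher (22.6% of all genes) and 1, Lpar1, was lower (4.23% of all genes). The 4 were S1pr3 and Ppap2a with Gna11 (0.30, adjusted p = 0.00749) and Gnaq (0.42, adjusted p = 0.0442). S1pr2, S1pr3, Ppap2a and Ppap2b remained lower in Ps of siControl over all alternatives other than the rule of a fold change above 2, and their values stayed between -1.52 and -0.55.

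Pairs of related genes were then compared within each library, where a scaling factor cancels. The log2 ratio of the reads of S1pr2 to those of S1pr3 was lower in Ps than in CB, at -0.37 in siControl (exact two-sided permutation p = 0.171, n = 4 per group) and at -0.46 in siAPC (exact permutation p = 0.0857). In siAPC it was lower in 4 of 4 same-numbered pairs. It was so in siControl too, where the pairs share a number only. The ratio of Ppap2a to Ppap2b was higher in Ps by 0.65 in siAPC (exact permutation p = 0.0286, the smallest that 4 against 4 can give, or 0.125 by an exact sign-flip test over the 4 pairs, the smallest that 4 pairs can give) and by 0.31 in siControl (exact permutation p = 0.229). The ratio of Gna11 to Gnaq was lower in Ps, at -0.22 in siControl and -0.39 in siAPC, and that of Gna12 to Gna13 was at -0.17 and -0.27. Leaving out 1 replicate number at a time, the siControl value ranged from -0.49 to -0.03 for Gna11 to Gnaq, with the extremes without replicates 3 and 2, and from -0.27 to -0.08 for Gna12 to Gna13. The ratio of Ppap2a to Ppap2b ranged from 0.16 to 0.44 in siControl and from 0.46 to 0.77 in siAPC, and that of S1pr2 to S1pr3 from -0.39 to -0.34 and from -0.52 to -0.40. In siControl, leaving out the 4 libraries that showed a falling GC trend moved the value of S1pr2 to S1pr3 to -0.21 (exact permutation p = 0.6) and that of Ppap2a to Ppap2b to 0.19 (exact permutation p = 0.4). After Benjamini-Hochberg adjustment over these 8 comparisons 0 passed, with adjusted p from 0.229 to 0.371. In a comparison chosen after the data were seen, the ratio of S1pr2 to S1pr3 was lower in siAPC than in siControl, at -0.58 in CB and at -0.66 in Ps (exact permutation p = 0.0571 and adjusted p = 0.152 for both). In Ps that ratio was lower in 4 of 4 same-numbered pairs. It was so in CB too, where the pairs share a number only. A ratio whose p missed the threshold is not shown to be equal between groups.

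Among 9600 genes with a mean log2 of at least 1 and a name that is not that of a predicted gene or pseudogene, those whose levels over the 16 libraries were most like S1pr2 were Flcn, Cspg4 and Sema6b (Pearson's r = 0.995, 0.993 and 0.992). In siControl Gna13 had the highest Ps/CB difference of the members (0.21, SE 0.07), within its SE of that of Gnai2 (0.19, SE 0.08). The genes most like Gna13 were Car6, Msrb3 and Riok3 (r = 0.887, 0.882 and 0.882). The 16 points share 4 groups and library effects, so these values are descriptions of likeness only.

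Of 129 other genes of the pathway 89 were listed. In siControl 24 of them (27.0%) were higher and 38 (42.7%) lower in Ps, with a median of -0.17, beside 29.1%, 31.2% and -0.00 for all genes, and in siAPC 20 (22.5%) were higher and 38 (42.7%) lower, beside 29.8% and 30.9% of all genes. Scaled by total reads, 14 (15.7%) were higher and 51 (57.3%) lower in siControl, beside 15.4% and 47.6% of all genes. In siAPC 16 were then higher and 46 (51.7%) lower, beside 21.5% and 39.3% of all genes. The enzymes that make or break down LPA and S1P were lower in Ps in 11 and higher in 2 of 17 genes in siControl (median -0.37), or in 14 and 1 scaled by total reads. Sgpl1, the lyase that ends the life of S1P, was at -1.04 (SE 0.06), and Lypla1, a lysophospholipase, was at 0.84 (SE 0.10). Of 3 other receptors listed out of 8, 2 were lower, among them Lpar2, a second LPA receptor, at -0.92 (SE 0.17). The G beta and gamma subunits, the partners of the alpha subunits, were higher in Ps in 7 and lower in 1 of 11 in siControl (median 0.48), or in 5 and 3 scaled by total reads. Among them were Gng5 at 1.06 (SE 0.07) in siControl and 0.95 in siAPC, Gng2 at 0.79 (SE 0.15) in siControl and Gng12 at 0.82 (SE 0.07) in siAPC. Of the 4 other alpha subunits listed 2 were higher and 1 was lower in Ps of siControl, or 1 and 1 scaled by total reads. Gnas, the subunit that stimulates adenylyl cyclases, was at 0.54 (SE 0.07), and Gnao1, of the Gαi class, at -0.50 (SE 0.09) in siControl and -0.76 in siAPC, while Gnai3, of the same class, was at 0.58 (SE 0.15) in siAPC.

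The shares of all genes in siControl, 31.2% lower and 29.1% higher in Ps, are the background of the counts that follow. Of the downstream arms only the Gαq and Gαi arms are described, and they do not stand for all genes downstream of the G proteins. Genes of the Gαq arm were lower in Ps in 7 (63.6%) and higher in 2 of 11 (18.2%), with the calcium channel Itpr3 at -0.90 (SE 0.10) and the guanine nucleotide exchange factor Trio at -0.82 (SE 0.11) in siControl. In the Gαi arm 5 of 11 (45.5%) were lower and 1 (9.09%) was higher, with the adenylyl cyclases Adcy6 at -0.91 and Adcy7 at -0.99. Among regulators 3 of 14 (21.4%) were higher and 5 (35.7%) lower in Ps, both near the background, with Rgs10, which speeds the inactivation of Gαi, at 1.10 (SE 0.08) in siControl and 0.97 in siAPC, Rgs3 at -0.88 (SE 0.12) in siControl and Rgs20 at 0.84 (SE 0.15) in siAPC. Scaled by total reads, 47.6% of all genes were lower and 15.4% higher in Ps of siControl. Under that scaling the Gαq arm had 9 lower (81.8%) and 0 higher genes, the Gαi arm 7 (63.6%) and 1, and the regulators 8 (57.1%) and 2.

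With siAPC 7 (7.87%) of the 89 pathway genes were higher and 10 (11.2%) lower in CB, beside 7.52% and 5.87% of all genes. In Ps 11 (12.4%) were higher and 18 (20.2%) lower, beside 10.7% and 11.2% of all genes. Scaled by total reads, 19 (21.3%) were higher and 7 (7.87%) lower in Ps, beside 22.6% and 4.23% of all genes. Plcb3, a phospholipase C that Gαq activates, was lower, at -0.50 in CB and at -0.70 in Ps (SE 0.09, limma adjusted p = 0.000657 and 1.13e-05). Prkca, a protein kinase C of the same arm, was lower, at -0.44 and -0.47. Ppap2c, the third lipid phosphate phosphatase, fell by 0.34 in CB and 0.54 in Ps (SE 0.08), in the opposite direction to Ppap2a. Asah1, an acid ceramidase, fell by 0.33 in CB (SE 0.10) and Ppapdc1b, a phosphatase of the same wider family, by 0.28 in Ps (SE 0.07). Of the 17 listed genes for making and breakdown of LPA and S1P, 3 were lower in CB and 2 in Ps. Scaled by total reads, 1 was lower and 1 higher in CB, beside 666 and 1094 of all 13015 genes. In Ps 1 was then lower and 3 higher, beside 4.23% and 22.6% of all genes. With the deposited scaling 1 of the 17 was higher in each fraction, Spns2, with 4 to 103 reads. It rose by 1.94 in CB and 2.41 in Ps (SE 0.32, limma adjusted p = 0.000358 and 2.23e-05). S1pr1, with 6 to 34 reads, was lower, at -0.99 in CB and -0.78 in Ps (SE 0.26, limma adjusted p = 0.0165 and 0.0399). Both had a mean log2 below 1 and so were outside the naming rule. Scaled by total reads, 0 of 3 other receptors passed in Ps. Arrb1, an arrestin that uncouples receptors from G proteins, rose by 0.81 and 0.79 (SE 0.15). The other regulators named by the rule were lower, Rgs3 at -0.60 in CB and -0.40 in Ps (SE 0.12) and Rgs2 at -0.52 and -0.50 (SE 0.15). Of the 14 regulators 2 were higher and 3 lower in Ps, with Rgs12 higher by 0.36 (SE 0.10, limma adjusted p = 0.0139). Scaled by total reads, 3 regulators were higher and 0 lower in Ps, so neither Rgs3 nor Rgs2 passed as lower there. In the Gαi arm Tiam1, a RacGEF, rose by 0.55 and 0.62 (SE 0.10), and Adcy7 by 0.25 in Ps (SE 0.08). Gng2 fell by 0.81 and 1.23 (SE 0.15), and Gng8, another gamma subunit, rose by 0.71 in Ps (SE 0.18, limma adjusted p = 0.00654). Gnao1 fell by 0.34 and 0.60 (SE 0.09) and Gnas by 0.31 in Ps (SE 0.07). The change of the Ps/CB ratio with siAPC passed the test in 0 of the 89 genes.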

How the data were processed

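RNA of 16 NIH/3T3 libraries was sequenced by the authors as paired reads from a stranded kit (for total RNA per the labels, for mRNA per the methods of the study), aligned to mm10 with STAR 2.4.2a (per the labels' processing notes) with GENCODE mouse release 4, counted per gene and normalized with limma-voom (limma 3.26.1). The deposited values are log2 CPM, the log2 of reads plus 0.5 relative to an effective library size. Inverting this gave whole reads for 100% of 208240 values (within 0.02 reads), from which depths and reads were taken. A gene with 3 reads has a log2 value between -2.73 and -1.80, and such floors cover counting error only.

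The members and gene lists were chosen with earlier results of these data known. Groups came from the labels. limma 3.58.1 (R 4.3.3; lmFit and eBayes with an intensity trend, no block) was fitted to the deposited log2 values of all 13015 genes and 16 libraries, with Benjamini-Hochberg adjustment over all genes and a threshold of 0.05, and was tested on simulated data. Levels per length used all exon bases of GENCODE M21 (GRCm38), which matched 12872 genes, 446 by an older symbol. Ratios of related genes used exact permutation tests (scipy 1.17.1). Pathway genes were named by rule, at most 2 per list and comparison with the largest change among calls with a mean log2 of at least 1. Replicates of a group differed by more than sampling noise (chi-squared over its degrees of freedom, 2.00 to 26.4), so each counted as 1 sample. Same-numbered libraries deviated together in siAPC CB and Ps (r = 0.42 to 0.62) and in both Ps groups (r = 0.16 to 0.55). Pairs with different numbers ranged there from -0.59 to 0.57 and from -0.48 to 0.35. Some of these matched the same-numbered pairs, such as siAPC CB replicate 3 with siAPC Ps replicate 4 (r = 0.57). The number alone is thus not shown to mark a pair. In siControl CB and Ps, and in both CB groups, 2 of 4 same-numbered pairs deviated together (r = 0.34 and 0.43, and 0.27 and 0.26). The pairs with siControl CB replicates 2 and 3 did not (r = -0.34 to -0.12), so same-numbered pairs there share a number only. Replicate 3 of siControl CB deviated together with replicate 2 of siControl Ps (r = 0.36) and of siAPC CB (r = 0.58), which shared its falling GC trend. Alternatives were other scalings, no intensity trend, voom weights, a mean filter, a replicate block, leaving out single libraries or the 4 with a falling GC trend, and the fold rule. The result of 1 pathway list is not reported here.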

Additional observations from a re-analysis of the deposited data

Results flagged for a closer look

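Of 40 groups of 4 values (10 genes in 4 groups) 1 held a value far from the others, where chance flags about 1 in 20 groups. The log2 CPM of Gna12 in siControl CB replicate 3 was 6.51, against 6.74 in each of the other 3 replicates, a gap of 0.965 of the range. This is 1 of the 4 libraries with a falling GC trend, and the part of that trend in the value was not tested.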

How the results depend on the processing

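Over 23 alternatives other than the fold rule (22 for Ppap2b, whose mean was below the filter), the Ps/CB differences of S1pr2, S1pr3, Ppap2a and Ppap2b in both siRNAs, and the siAPC changes of Lpar1, S1pr3 and Ppap2a in both fractions, kept their direction and stayed past the threshold. By the fold rule only S1pr2 passed between fractions in siControl, and S1pr2 and Ppap2b in siAPC. The replicate block changed 1 call of a single gene, Gna11 with siAPC in CB (0.19, adjusted p = 0.0292). In the 8 ratios of related genes it can move only the p, and for Ppap2a to Ppap2b in siAPC (0.65) the exact p was 0.125 in place of 0.0286. The number of members higher in Ps of siControl was 0 under scaling by total reads (15.4% of all genes) and 0 by the fold rule (7.19%). It was 1 under quantile normalization (3934 of 13015 genes) and 1 without the intensity trend (3742 of 13015 genes). Leaving out single libraries it was 0 to 2 (3495 to 3995 of 13015 genes). In siAPC it was 0 by total reads (21.5% of all genes) and 0 by the fold rule (7.67%). Leaving out single libraries it was 0 to 1 there (3534 to 4086 of 13015 genes). Lower members in siControl numbered 7 by total reads (47.6% of all genes) and 1 by the fold rule (6.82%). In siAPC they numbered 7 by total reads (39.3%) and 2 by the fold rule (5.05%). With siAPC in Ps, 4 members were higher by total reads (22.6% of all genes). The cause was not tested.

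Under total reads the Ps/CB difference in siControl turned to -0.265 for Gna12, -0.103 for Gnai2, -0.0917 for Gna13 and -0.234 for Gnaq, and in siAPC to -0.0872 for Gnai2. The change of the ratio turned to 0.0118 for Gna12, 0.0162 for Gnai2, 0.0906 for Gna11 and 0.111 for Gna13. The siAPC change turned to 0.0196 for S1pr2 in CB and, in Ps, to 0.109 for Gna12, 0.0387 for Gnai2 and 0.145 for Gna13. Under quantile normalization Gnai2 turned to -0.0108 in siControl and -0.0208 in siAPC between fractions and to -0.0281 with siAPC in CB, Ppap2b to -0.0498 and Gna13 to 0.0334 with siAPC in Ps, and the ratio change of Gna13 to 0.0218. Without the 4 libraries with a falling GC trend, Lpar1 turned to 0.0299 between fractions in siControl, the siAPC change in CB to 0.109 for S1pr2, -0.0422 for Gnai2 and -0.0235 for Gna13, and that of Ppap2b in Ps to -0.0278.

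Leaving out single libraries also turned some values near 0. Between fractions in siControl, Gna12 ranged from -0.0261 to 0.104 and Gnaq from -0.0018 to 0.209. The ratio change ranged from -0.124 to 0.008 for Gna11, -0.0785 to 0.0101 for Gna13 and -0.0285 to 0.182 for Gnaq. The siAPC change in CB ranged from -0.0715 to 0.0699 for S1pr2, -0.057 to 0.0388 for Gnai2 and -0.0276 to 0.0601 for Gna13, and in Ps from -0.0126 to 0.300 for Ppap2b, -0.127 to 0.0219 for Gna12 and -0.0614 to 0.0226 for Gna13. None of these Gna11, Gna12, Gna13, Gnai2, Gnaq, S1pr2 and Ppap2b values passed the test with all 16 libraries. Depth limits Ppap2b, with 7 to 41 reads.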
